A study of Mus musculus with 8 samples.

Results

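The circadian clock was followed through 10 of its genes in Neuro-2a (N2a) cells, an established mouse neuroblastoma line, that overexpressed Nrsn2, the gene of the vesicle protein neurensin-2. The genes, Per1, Per2, Per3, Cry1, Cry2, Clock, Nr1d1, Nr1d2, Dbp and Tef, were taken by symbol from the deposited gene table. All 10 were found among its 49164 genes with counts, and all 10 passed the filter on low counts that left 15187 tested genes. They were picked from the core clock and its direct output with the difference between overexpression and control in these same libraries already known, so their values in that comparison are a description and carry no test of their own. PolyA RNA was sequenced from 4 libraries of cells transiently transfected with an Nrsn2 construct (Nrsn2 OE) and from 4 control libraries, all of the same line grown in high-glucose DMEM with serum. The construct came from GeneCopoeia, was delivered with the reagent TransIT-X2 and acted for 24 hours; the share of cells that took it up is not stated. Whether the control cells got an empty construct, the reagent alone or nothing is not named in the labels. Separate cultures are not stated either, so errors and p-values measure a spread between samples that may be technical. With a single collection time, neither the phase nor the amplitude of a daily rhythm could be read.

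The clock of mammalian cells is a transcriptional feedback loop. The proteins CLOCK and BMAL1 pair on E-box sequences and switch on the Per and Cry genes, whose products return to the nucleus and repress that pair. In a second loop, the nuclear receptors REV-ERBα and REV-ERBβ, encoded by Nr1d1 and Nr1d2, repress Bmal1 and other genes at ROR elements. DBP and TEF are activators of the PAR bZIP family that bind D-box sequences, through which the clock drives output genes. Per1 and Per2 also answer directly to cAMP, serum and glucocorticoid signals, which can reset the clock in cultured cells.

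Library totals ranged from 15347255 to 21395096 counts. Nrsn2 held 147, 173, 156 and 170 CPM (a gene's reads scaled to the same library total, with TMM factors) in the Nrsn2 OE libraries, against 8.42, 8.53, 6.54 and 10.6 CPM in the control libraries. The libraries had the markers of the labelled sympathetic neuroblastoma, with 11 of 13 at a mean of at least 1 CPM. Their sum did not overlap between the groups, at 889 to 951 CPM in Nrsn2 OE and 987 to 1061 CPM in control. Stmn2 averaged 301 CPM in Nrsn2 OE and 421 CPM in control, and Isl1 32.6 CPM in Nrsn2 OE and 46.4 CPM in control. Gata2 averaged 116 CPM in Nrsn2 OE and 79.9 CPM in control. The part of these shifts in the values of the clock genes was not tested. Nefl and Nefm were close to 0. Summed over each list, leukocyte and microglial markers reached at most 2.05 CPM in a Nrsn2 OE library and 1.12 CPM in a control library, and astrocyte markers 0.318 and 0.231 CPM. The markers Ptprc, Aif1, Gfap, Aqp4 and Cdh5 were close to 0. The leukocyte marker Cd68 was not, with a mean of 1.34 CPM in Nrsn2 OE and 0.791 CPM in control. Its libraries ranged from 1.05 to 1.68 CPM in Nrsn2 OE and from 0.685 to 0.980 CPM in control. Of the fibroblast and endothelial markers, Dcn, Pdgfrb and Pecam1 reached a mean of 1 CPM, and their lists summed to at most 6.41 and 9.32 CPM in the Nrsn2 OE libraries and 7.34 and 8.47 CPM in the control libraries.

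The promoters of the 3 members with the largest fold changes, Per1, Nr1d1 and Dbp, are shown whole, because CLOCK and BMAL1 are known to act on all 3 genes. Each sequence runs 5′ to 3′ on the strand of its gene, from 250 bases before to 50 bases after the start in RefSeq (GRCm38.p6, an older build than the GRCm39 of the deposited table). Capitals mark an E-box (CACGTG) or an E-box-like match (CACGTT, which reads AACGTG on the other strand). The Per1 promoter is the first of its 2 in the table (chr11:69098699-69098998, plus strand), that of Nr1d1 lies on the minus strand (chr11:98775328-98775627) and that of Dbp on the plus strand (chr7:45704997-45705296).
Per1: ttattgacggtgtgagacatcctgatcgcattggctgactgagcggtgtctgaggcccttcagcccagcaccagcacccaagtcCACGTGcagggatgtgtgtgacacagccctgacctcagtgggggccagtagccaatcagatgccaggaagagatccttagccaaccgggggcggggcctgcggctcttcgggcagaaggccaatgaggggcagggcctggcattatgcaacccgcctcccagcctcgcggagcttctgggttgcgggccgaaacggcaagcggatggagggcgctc
Nr1d1: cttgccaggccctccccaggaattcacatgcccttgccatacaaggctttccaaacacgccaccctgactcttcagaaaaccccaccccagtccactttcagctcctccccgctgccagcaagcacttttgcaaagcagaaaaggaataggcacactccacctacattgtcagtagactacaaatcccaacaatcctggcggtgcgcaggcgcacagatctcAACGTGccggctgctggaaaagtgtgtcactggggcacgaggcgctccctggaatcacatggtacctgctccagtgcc
Dbp: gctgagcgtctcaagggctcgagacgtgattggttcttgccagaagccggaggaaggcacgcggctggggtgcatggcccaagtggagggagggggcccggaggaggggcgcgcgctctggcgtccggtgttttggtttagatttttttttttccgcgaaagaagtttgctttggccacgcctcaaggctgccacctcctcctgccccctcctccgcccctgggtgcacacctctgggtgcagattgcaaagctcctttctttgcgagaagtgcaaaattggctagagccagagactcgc

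The Per1 promoter held an E-box whose first base lay 166 bases before the start. Nr1d1 held an E-box-like match 28 bases before the start, and the window of Dbp held none of the motifs searched. The search took both strands of 13 promoters, 1 to 3 per gene, of 9 members; Per2 was not among them. An E-box was found in 4 of the 13 promoters (1 each of Per1 and Cry1 and both of Tef) and in 7.15% of all 32851 promoters of the same length. The E-box-like match was found in 3 of the 13 (Cry1, Cry2 and Nr1d1) and in 4.68% of all promoters. The D-box TTATGTAA was found in 1 of the 13, that of Per3, at 205 and at 158 bases before the start, and in 0.938% of all promoters. The palindromic D-box TTACGTAA, the ROR element (AANT followed by AGGTCA) and the cAMP response element TGACGTCA, present in 0.119%, 0.219% and 1.79% of all promoters, were found in none of the 13. CACGTG, TTACGTAA and TGACGTCA read the same on both strands, and a match to either E-box form is never a match to the other. Only the letters given were searched for, so variants such as TTATGCAA, present in the Per1 sequence above, were not counted.

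Stretches around the other matches are shown on the same build and with motifs in capitals. The promoters of Clock and Nr1d2 held none of the motifs searched. A link between motifs and fold changes was not tested. They lie at chr4:151044799-151044887 (Per3, minus strand), chr10:85185092-85185150 (Cry1, minus strand), chr2:92434213-92434252 (Cry2, minus strand) and, for the pair of Tef promoters, chr15:81802529-81802568 and chr15:81811259-81811298 (plus strand).
Per3: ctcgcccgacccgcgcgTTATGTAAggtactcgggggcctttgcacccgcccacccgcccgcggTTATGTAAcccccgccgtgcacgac
Cry1: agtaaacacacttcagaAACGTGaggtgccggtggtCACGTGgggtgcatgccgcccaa
Cry2: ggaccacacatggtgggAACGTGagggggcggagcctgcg
Tef promoter 1: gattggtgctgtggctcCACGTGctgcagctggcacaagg
Tef promoter 2: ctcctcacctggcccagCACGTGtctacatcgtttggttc

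Of the 10 genes, 5 were higher with Nrsn2 overexpression. These were Per1, Per2, Nr1d1, Nr1d2 and Dbp, which passed an adjusted p of 0.05 in the edgeR quasi-likelihood test fitted over all 15187 tested genes, of which 18.6% passed upward and 16.8% downward. The same 5 genes were the members whose 4 Nrsn2 OE libraries all lay above the 4 control libraries, as did 17.2% of all tested genes. Cry1, Cry2, Clock, Tef and Per3 did not pass. None of the 10 was lower by edgeR, DESeq2 or limma-voom after adjustment, and 1, Per3, was lower at an unadjusted p under 0.05 by edgeR. The median log2 fold change of the 10 was 0.22, beside -0.001 over all tested genes. In the authors' deposited table, 6 of the 10 were marked at the authors' adjusted p threshold of 0.1, 5 higher and 1, Per3, lower. Beside them, 25.6% of the 23163 genes given a log2 fold change there were marked. Nothing is read from these shares, because this comparison chose the members. In bulk libraries, fewer cells that express a gene and less of its RNA per cell cannot be told apart.

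**Figure D1:**
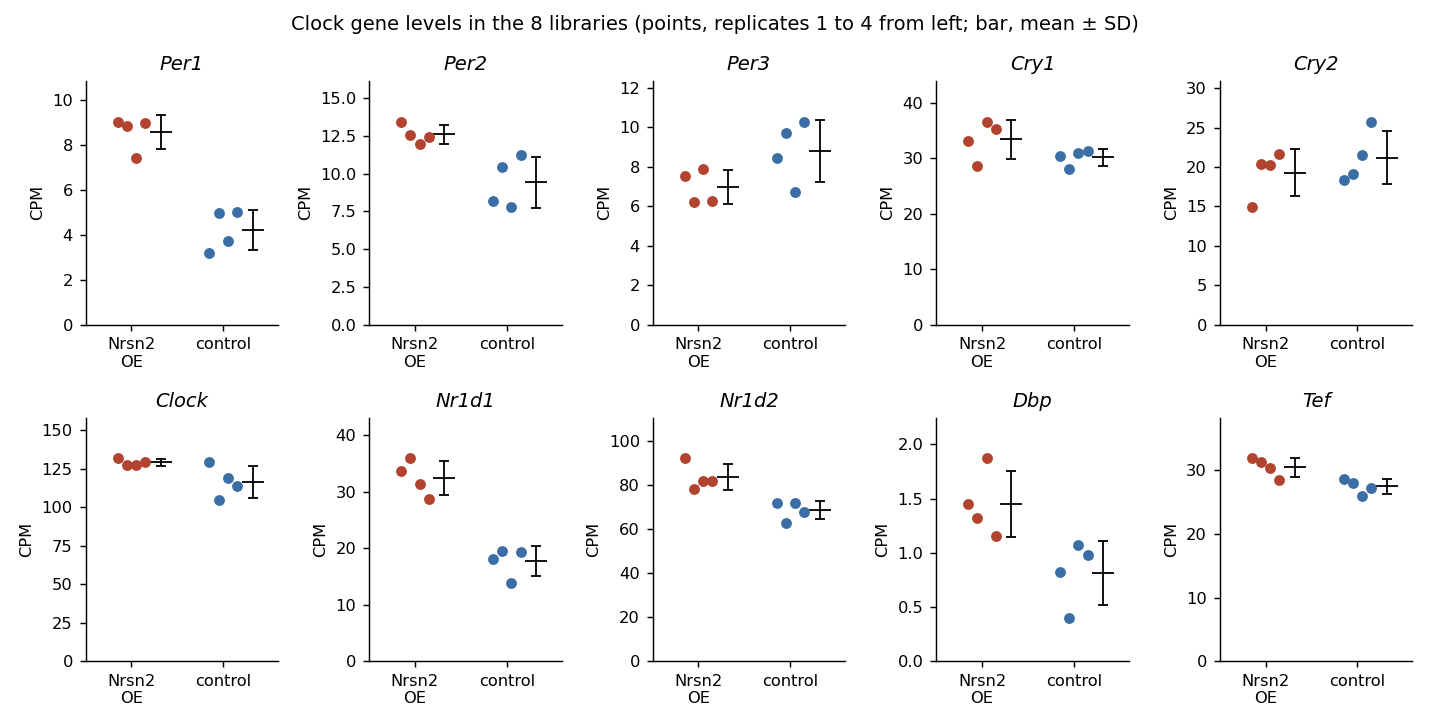
CPM of each clock gene in every library, Nrsn2 OE on the left and control on the right of each panel, with mean ± SD over 4 libraries. The points of the groups separate for Per1, Per2, Nr1d1, Nr1d2 and Dbp and overlap for the other 5 genes.

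The period genes encode the repressors whose build-up closes the main loop. Per1 (ENSMUSG00000020893; GRCm39 chromosome 11, 68986043 to 69000786, plus strand) held 9.04, 8.83, 7.43 and 8.98 CPM in the Nrsn2 OE libraries, against 3.18, 4.96, 3.74 and 4.99 CPM in the control libraries. Every Nrsn2 OE library lay above every control library, with means of 8.57 ± 0.76 CPM in Nrsn2 OE and 4.22 ± 0.91 CPM in control (± SD over 4 libraries each). The log2 fold change was 1.01 ± 0.15 (± SE), or 2.02-fold. This was the largest fold change of the 10 genes, and it passed under all 16 alternative settings, between 0.89 and 1.10 when single libraries were left out.

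Per2 (ENSMUSG00000055866; chromosome 1, 91343704 to 91387046, minus strand) held 13.4, 12.6, 11.9 and 12.4 CPM in the Nrsn2 OE libraries, against 8.18, 10.4, 7.81 and 11.3 CPM in the control libraries. The groups did not overlap, though the highest control library came within 1 CPM of the lowest Nrsn2 OE library. The means were 12.6 ± 0.62 CPM in Nrsn2 OE and 9.42 ± 1.69 CPM in control, and the log2 fold change was 0.41 ± 0.12. It passed under all 16 alternative settings.

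Per3, a less studied member of the family, had a negative fold change that did not pass. It held 7.53, 6.23, 7.90 and 6.28 CPM in the Nrsn2 OE libraries, against 8.42, 9.69, 6.74 and 10.3 CPM in the control libraries (ENSMUSG00000028957; chromosome 4, 151088109 to 151129122, minus strand). Control library 3 fell among the Nrsn2 OE libraries, and the log2 fold change was -0.34 ± 0.14. Without control library 3 it was -0.45 and passed. Per3 lies inside Camta1 on the same strand, whose annotated exons share no base with its own. Camta1 held 13.9 ± 2.28 CPM in the Nrsn2 OE libraries and 14.5 ± 1.79 CPM in the control libraries and did not pass (log2 fold change -0.06 ± 0.12, and 0.04 without Nrsn2 OE library 2).

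Set on a scale per length (CPM per kilobase of annotated exon, an approximation because the isoforms in use are not known), the make-up of the PER family differed between the groups. Per1 made up 34.3, 35.9, 31.6 and 36.5% of the family in the Nrsn2 OE libraries, against 19.9, 24.0, 24.6 and 22.9% in the control libraries. Per3 made up 16.7, 14.9, 19.7 and 14.9% in the Nrsn2 OE libraries, against 30.9, 27.5, 26.0 and 27.6% in the control libraries. Neither gene's shares overlapped between the groups. Shares of 1 sum are tied, so a higher Per1 by itself lowers the share of Per3. In CPM, Per3 overlapped between the groups and did not pass. The share of Per2 averaged 48.9 ± 0.25% in the Nrsn2 OE libraries and 49.2 ± 0.45% in the control libraries, and its ranges overlapped. The family summed to 4.40 ± 0.21 CPM per kilobase in the Nrsn2 OE libraries and 3.27 ± 0.59 in the control libraries.

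**Figure D2:**
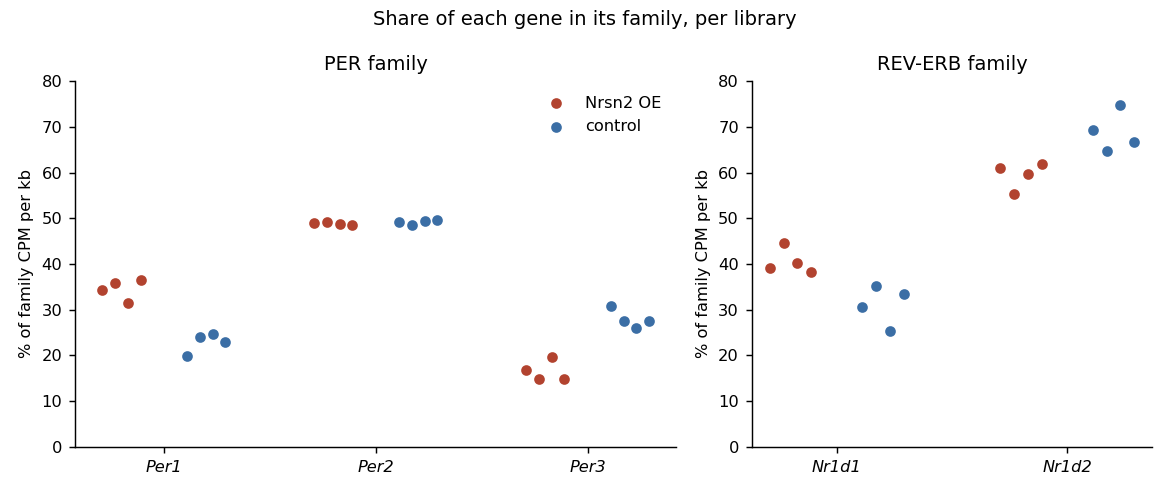
Share of each gene in the summed CPM per kilobase of its family, 1 point per library, for the PER and REV-ERB families (red, Nrsn2 OE; blue, control). Per1 and Nr1d1 take a larger share and Per3 and Nr1d2 a smaller one in every Nrsn2 OE library than in any control library, while Per2 stays between 48.5 and 49.6% in all 8. The shares are not adjusted for GC content.

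The REV-ERB receptors are both targets of CLOCK and BMAL1 and repressors of Bmal1. Nr1d1 (ENSMUSG00000020889; chromosome 11, 98658758 to 98666159, minus strand) held 33.6, 35.9, 31.4 and 28.8 CPM in the Nrsn2 OE libraries, against 18.1, 19.5, 13.9 and 19.3 CPM in the control libraries. The groups lay far apart relative to their spread, at 32.4 ± 3.05 CPM in Nrsn2 OE and 17.7 ± 2.62 CPM in control, with a log2 fold change of 0.87 ± 0.10, or 1.83-fold. It passed under all 16 alternative settings, between 0.77 and 0.92 when single libraries were left out. The 3′ end of Nr1d1 overlaps that of Thra, the thyroid hormone receptor α gene on the opposite strand, over 263 bases of exon in the GRCm38 annotation, and reads there cannot be told apart because the kit does not mark strand. Thra itself held 20.8 ± 2.04 CPM in the Nrsn2 OE libraries and 23.3 ± 2.95 CPM in the control libraries (log2 fold change -0.17 ± 0.10; edgeR adjusted p = 0.206). With GC and length offsets Thra passed as lower (-0.26; edgeR adjusted p = 0.0179).

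Nr1d2 (ENSMUSG00000021775; chromosome 14, 4230569 to 4265642, plus strand) held 92.2, 78.4, 81.9 and 82.0 CPM in the Nrsn2 OE libraries, against 72.0, 63.0, 72.0 and 67.9 CPM in the control libraries. It was higher in every Nrsn2 OE library than in any control library, by a log2 fold change of 0.28 ± 0.07, and passed under all 16 settings. On the scale per length, Nr1d1 made up 40.5 ± 2.86% of the pair in the Nrsn2 OE libraries and 31.1 ± 4.31% in the control libraries, with ranges of 38.1 to 44.6% and 25.3 to 35.2%. These shares were not adjusted for GC content, where Nr1d1 lay in decile 9 of tested genes and Nr1d2 in decile 2. The part of GC content in this difference was not tested. The 2 genes summed to 26.0 ± 1.48 CPM per kilobase in the Nrsn2 OE libraries and 18.5 ± 0.66 in the control libraries.

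Of the PAR bZIP activators, Dbp was scarce and Tef moderate. Dbp (ENSMUSG00000059824; chromosome 7, 45354512 to 45359627, plus strand) held 1.45, 1.32, 1.87 and 1.16 CPM in the Nrsn2 OE libraries, against 0.824, 0.404, 1.07 and 0.979 CPM in the control libraries, from 7 to 36 counts per library. The groups separated by less than 0.1 CPM, between Nrsn2 OE library 4 and control library 3, and the log2 fold change of 0.82 ± 0.28 had the largest error of the 10. The call of Dbp was lost without control library 1 (0.82), control library 2 (0.59) or Nrsn2 OE library 3 (0.68), and with DESeq2 (0.82). Dbp shares 539 bases of annotated exon with Sphk2, the sphingosine kinase 2 gene on the opposite strand. Sphk2 was itself higher, at 25.9 ± 1.42 CPM in the Nrsn2 OE libraries and 17.7 ± 2.97 CPM in the control libraries (log2 fold change 0.55 ± 0.10; edgeR adjusted p = 5.34e-04). The part of Sphk2 reads in the counts of Dbp was not tested.

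Tef (ENSMUSG00000022389; chromosome 15, 81686622 to 81711064, plus strand) held 31.9, 31.3, 30.3 and 28.4 CPM in the Nrsn2 OE libraries, against 28.7, 28.0, 25.9 and 27.3 CPM in the control libraries. Only Nrsn2 OE library 4 fell within the control range, and the log2 fold change of 0.15 ± 0.08 did not pass. Its antisense neighbour Gm17597 held 2 to 15 counts per library.

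The cryptochromes, the partners of PER in repression, did not pass in either direction. Cry1 (ENSMUSG00000020038; chromosome 10, 84967564 to 85020928, minus strand) held 33.1, 28.7, 36.6 and 35.4 CPM in the Nrsn2 OE libraries, against 30.4, 28.0, 31.0 and 31.3 CPM in the control libraries (log2 fold change 0.15 ± 0.08). Cry2 (ENSMUSG00000068742; chromosome 2, 92233991 to 92264388, minus strand) held 14.9, 20.3, 20.2 and 21.6 CPM in the Nrsn2 OE libraries, against 18.4, 19.1, 21.6 and 25.8 CPM in the control libraries (-0.14 ± 0.12). Nrsn2 OE library 1 had the lowest Cry2 level and control library 4 the highest, and without either the log2 fold change of Cry2 was -0.04 or -0.03. The antisense transcript D930015M05Rik, which shares 295 exon bases with Cry2, held 5 to 17 counts per library.

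Clock encodes the activator that pairs with BMAL1. It held 132, 128, 128 and 130 CPM in the Nrsn2 OE libraries, against 129, 105, 119 and 114 CPM in the control libraries (ENSMUSG00000029238; chromosome 5, 76357715 to 76452639, minus strand). Control library 1 reached the Nrsn2 OE range, and the log2 fold change was 0.15 ± 0.07, which did not pass. Without control library 1 it was 0.20 and passed. The unverified transcript Gm43658, which lies within Clock on the same strand and shares no annotated exon base with it, was lower, at 2.08 ± 0.26 CPM in the Nrsn2 OE libraries and 3.71 ± 0.24 CPM in the control libraries (log2 fold change -0.83 ± 0.17; edgeR adjusted p = 9.81e-04).

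**Figure D3:**
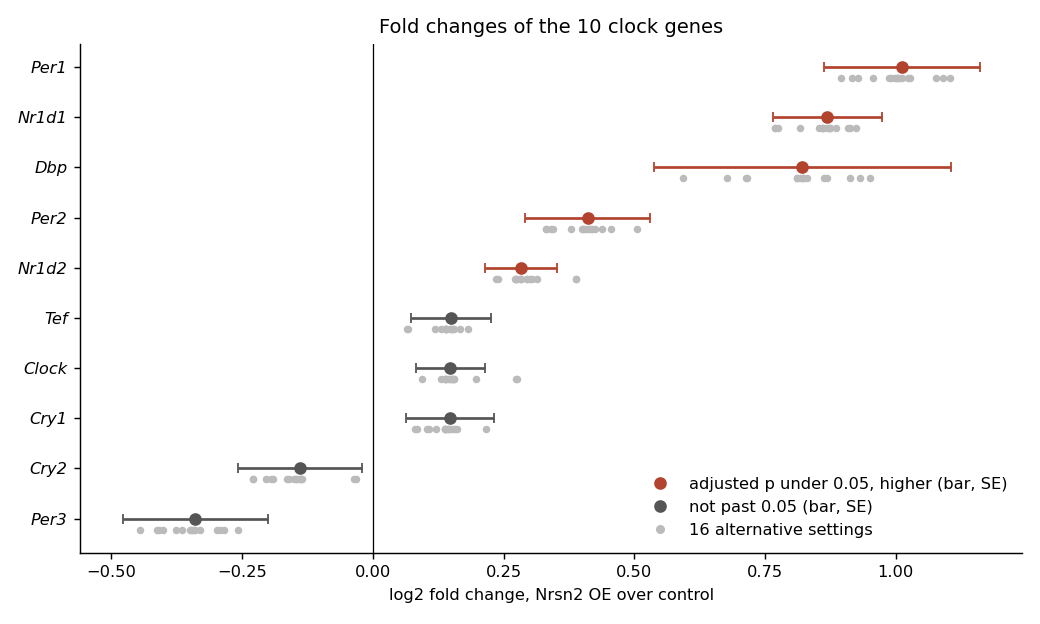
Log2 fold change of each clock gene, Nrsn2 OE over control, with its SE (large points; red where the adjusted p was under 0.05) and under 16 alternative settings (small grey points). No gene changed sign under any of the 16, and the grey points of Per1 and Nr1d1 stay above 0.75.

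Ordered by level per length, Nr1d2 stood at the top and the Per genes and Dbp at the bottom in both groups. Nr1d1 stood above Cry1 and Clock in the Nrsn2 OE libraries and below them in the control libraries. In the Nrsn2 OE libraries the order was Nr1d2 (15.5 ± 1.10 CPM per kilobase), Nr1d1 (10.5 ± 0.99), Cry1 (10.0 ± 1.04), Clock (9.41 ± 0.14), Tef (3.87 ± 0.19), Cry2 (3.05 ± 0.47), Per2 (2.15 ± 0.11), Per1 (1.52 ± 0.14), Per3 (0.727 ± 0.089) and Dbp (0.484 ± 0.102). In that order Nr1d1 and Cry1, and Cry1 and Clock, were neighbours that differed by less than the larger of their SDs. In the control libraries the order was Nr1d2 (12.7 ± 0.79), Cry1 (9.04 ± 0.45), Clock (8.50 ± 0.75), Nr1d1 (5.75 ± 0.85), Tef (3.49 ± 0.15), Cry2 (3.36 ± 0.53), Per2 (1.61 ± 0.29), Per3 (0.914 ± 0.163), Per1 (0.749 ± 0.161) and Dbp (0.274 ± 0.098). There Cry1 and Clock, and Tef and Cry2, were the neighbours that differed by less than the larger of their SDs, and Per3 and Per1 differed by little more.

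The control libraries differed among themselves in a way that several members shared. Per1, Per2, Per3 and Nr1d1 were lower in control libraries 1 and 3 than in control libraries 2 and 4, while Clock and Nr1d2 were higher in 1 and 3. Cry1, Cry2, Dbp and Tef did not follow this split. By the GC content of the longest annotated transcript, Per3 lay in decile 7 of tested genes, Per2 in decile 8, Nr1d1 in decile 9 and Per1 in decile 10, against decile 2 for Clock and Nr1d2. Of the genes that did not follow the split, Cry1 lay in decile 7, Tef in decile 8, Cry2 in decile 9 and Dbp in decile 10. The median level of genes in decile 9 minus that of genes in decile 2, each set against its mean over the 8 libraries on the log2 scale, was 0.08, 0.19, 0.05 and 0.07 in the Nrsn2 OE libraries, against -0.22, 0.02, -0.15 and -0.03 in the control libraries. The median log2 fold change over all tested genes was 0.10 in decile 9 and -0.09 in decile 2.

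Offsets for transcript GC content and for length, which take out the smooth part of this trend in each library, were added to the fit. Per1 (0.92 ± 0.13), Nr1d1 (0.77 ± 0.09), Per2 (0.33 ± 0.11) and Nr1d2 (0.39 ± 0.06) then still passed. Clock passed as well, at 0.27 ± 0.06, and Per3 passed downward, at -0.41 ± 0.13. Dbp (0.71 ± 0.29) no longer passed. Cry1 (0.08 ± 0.09), Tef (0.07 ± 0.07) and Cry2 (-0.23 ± 0.11) did not pass.

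**Figure D4:**
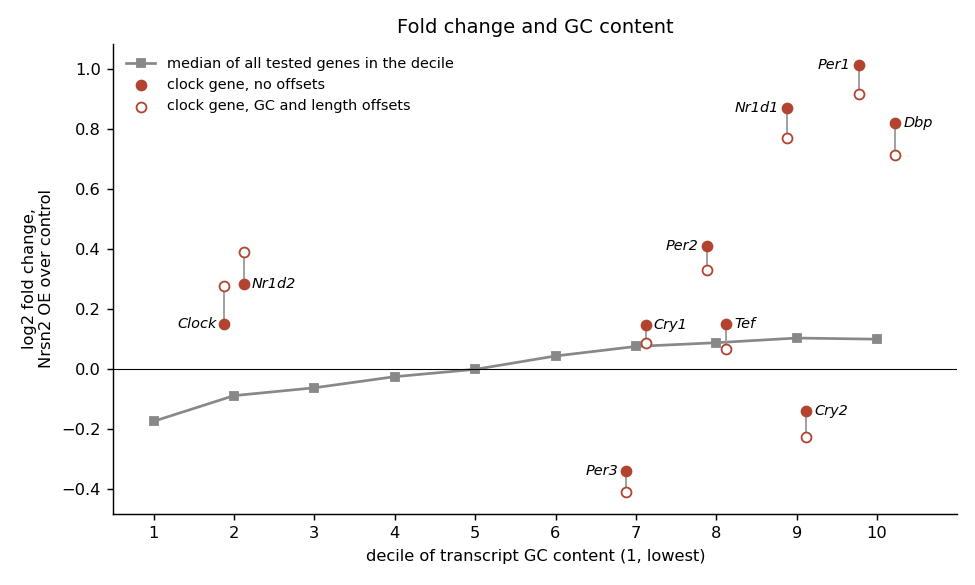
Log2 fold change of each clock gene, Nrsn2 OE over control, by the GC decile of its transcript (filled, no offsets; open, with GC and length offsets), with the median of all tested genes per decile in grey. The grey medians run from -0.18 in decile 1 to 0.10 in decile 10, and the offsets lower the genes in deciles 7 to 10 and raise Clock and Nr1d2 in decile 2.

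Genes outside the 10 that act in the clock were taken from 6 lists chosen for their known roles. Of the 69 genes listed, 63 were tested, 23 were higher and 7 lower, with a median log2 fold change of 0.10, beside 18.6 and 16.8% of all tested genes. Among the other activators and ROR receptors, 1 of 3 tested was higher and 0 lower by edgeR (0 lower at an unadjusted p under 0.05, by DESeq2 and by limma-voom). Arntl (Bmal1), the partner of CLOCK, held 14.3 ± 1.39 CPM in the Nrsn2 OE libraries and 14.0 ± 1.06 CPM in the control libraries (log2 fold change 0.04 ± 0.10, and -0.02 without control library 2 or Nrsn2 OE library 2). Its paralogue Arntl2 was higher by 0.31 ± 0.12 (edgeR adjusted p = 0.0470), a call lost when control library 1, 2 or 4 or Nrsn2 OE library 1, 3 or 4 was left out (0.25 to 0.33), and with 5 of the other 8 alternatives (0.30 to 0.31). The ROR receptor gene Rorb did not pass (-0.01 ± 0.16). Npas2, a stand-in for Clock in neurons, and Rora were too scarce to be tested.

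Among the other repressors and Timeless partners, 5 of 8 were higher and 1 lower, with a median log2 fold change of 0.27. Id2, an inhibitor of bHLH factors, held 15.95, 16.3, 16.4 and 18.7 CPM in the Nrsn2 OE libraries, against 9.30, 9.23, 8.54 and 4.65 CPM in the control libraries (log2 fold change 1.10 ± 0.15; edgeR adjusted p = 4.10e-05). Control library 4 held the least Id2, and without it the log2 fold change was 0.89. Ciart, a repressor of CLOCK and BMAL1 also called Chrono, was higher by 0.68 ± 0.15 (11.8 ± 1.85 CPM in Nrsn2 OE and 7.31 ± 1.61 CPM in control; edgeR adjusted p = 0.00155), with Nrsn2 OE library 4 and control library 4 equal at 9.64 and 9.65 CPM. Bhlhe41, which encodes the E-box repressor DEC2, was higher by 0.48 ± 0.10 (19.1 ± 1.70 CPM in Nrsn2 OE and 13.7 ± 1.43 CPM in control), without overlap. Its relative Bhlhe40 did not pass (-0.27 ± 0.17). Control library 4 held 91.3 CPM of Bhlhe40 while the other 3 control libraries held 40.8 to 51.8 CPM, and without it the log2 fold change was 0.06. With no low-count filter Bhlhe40 passed as lower (-0.26). Zfhx3, a transcription factor gene of the central clock, was higher by 0.28 ± 0.07, and Cipc, an inhibitor of CLOCK, did not pass (0.13 ± 0.07). Timeless was higher (0.26 ± 0.09) and its partner at replication forks, Tipin, was lower (-0.30 ± 0.10). The call of Timeless was lost without control library 2, 3 or 4 or Nrsn2 OE library 2, 3 or 4 (0.22 to 0.26), and that of Tipin without control library 1, 2 or 3 or Nrsn2 OE library 1 or 2 (-0.30 to -0.20). GC and length offsets ended both calls (0.17 for Timeless and -0.21 for Tipin), and the replicate block that of Timeless (0.26).

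Among D-box factors and clock output genes, 1 of 10 tested was higher and 1 lower, with a median log2 fold change of 0.002. Klf10, a repressor gene controlled by the clock and by TGFβ, was higher, at 105 ± 7.25 CPM in the Nrsn2 OE libraries and 68.3 ± 4.22 CPM in the control libraries (0.62 ± 0.07; edgeR adjusted p = 3.16e-06). Nampt, the rate-limiting enzyme of NAD salvage, was lower, at 186 ± 3.96 CPM in Nrsn2 OE and 230 ± 21.1 CPM in control (-0.30 ± 0.07; edgeR adjusted p = 0.00193), a call lost (-0.16) in the fit with GC and length offsets. The third PAR bZIP gene, Hlf, did not pass (-0.15 ± 0.07), although its Nrsn2 OE libraries (35.3 to 37.8 CPM) all lay below its control libraries (38.5 to 41.5 CPM). Nfil3, the repressor that competes at D-boxes, did not pass either (0.16 ± 0.09).

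Of 15 tested kinases and ubiquitin ligases of clock proteins, 4 were higher and 2 lower, with a median of 0.009. Csnk1d, a casein kinase that phosphorylates PER, was higher by 0.27 ± 0.06 (198 ± 5.80 CPM in Nrsn2 OE and 165 ± 5.05 CPM in control; edgeR adjusted p = 0.00159), and its relative Csnk1e did not pass (0.16 ± 0.07). Fbxw11, a β-TrCP ligase that acts on PER, was higher by 0.30 ± 0.06, and Csnk2a2, a catalytic subunit of casein kinase 2, by 0.26 ± 0.06. Gsk3b, a kinase of several clock proteins, was lower (-0.23 ± 0.06). The remaining calls, outside the rule for named genes and picked with values in view, were the AMPK subunit gene Prkaa1 (0.17 ± 0.07) and the ubiquitin ligase gene Huwe1 (-0.24 ± 0.07). Prkaa1 lost its call without control library 2, 3 or 4 or Nrsn2 OE library 1, 3 or 4 (0.13 to 0.18), and Huwe1 without Nrsn2 OE library 4 (-0.21). The call of Prkaa1 was also lost with RLE factors, upper-quartile factors and DESeq2 (0.16 each) and with no low-count filter (0.17). In this list 4 genes were lower without Nrsn2 OE library 1.

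Cofactors of clock transcription were higher in 7 of 14 cases and lower in 0 by edgeR (0 lower at an unadjusted p under 0.05, by DESeq2 and by limma-voom), with a median of 0.17. Sirt1, a deacetylase that acts on BMAL1 and PER2, held 84.0 ± 3.38 CPM in the Nrsn2 OE libraries and 57.1 ± 8.26 CPM in the control libraries (0.56 ± 0.08; edgeR adjusted p = 7.85e-05). The acetyltransferase genes Ep300 (0.40 ± 0.06) and Crebbp (0.39 ± 0.06) and the methyltransferase gene Kmt2a (0.29 ± 0.07) were also higher. The remaining calls, picked with values in view, were Sfpq (0.29 ± 0.08), Wdr5 (0.24 ± 0.07) and Kdm5a (0.18 ± 0.06). Kdm5a lost its call without control library 1, 2 or 3 or Nrsn2 OE library 2, 3 or 4 (0.15 to 0.18). It also lost it with no low-count filter and with the replicate block (0.18 each). Wdr5 lost its call with offsets and replicate block together (0.19). Ncor1 and Hdac3, the corepressor complex of the REV-ERB receptors, did not pass (-0.006 ± 0.063 and 0.06 ± 0.07).

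Among 13 genes of CREB, SRF and glucocorticoid input, 5 were higher and 3 lower, with a median of 0.07. Crtc1, a coactivator of CREB, was higher by 0.50 ± 0.10 (16.7 ± 1.46 CPM in Nrsn2 OE and 11.8 ± 1.12 CPM in control; edgeR adjusted p = 9.47e-04). Sik1, a kinase that CREB induces and that limits clock resetting, was higher by 0.34 ± 0.09, and the glucocorticoid-responsive kinase gene Sgk1 by 0.37 ± 0.09. Adcyap1r1, the receptor of the neuropeptide PACAP, was lower, at 132 ± 10.0 CPM in the Nrsn2 OE libraries and 183 ± 10.1 CPM in the control libraries (-0.47 ± 0.07; edgeR adjusted p = 5.06e-05). The other calls, again picked with values in view, were Srf (0.27 ± 0.09) and Crtc2 (0.24 ± 0.09) higher, and the CREB-family gene Crem (-0.44 ± 0.13) and the glucocorticoid target Fkbp5 (-0.19 ± 0.07) lower. These calls were lost without control library 1 or Nrsn2 OE library 2 or 4 for Srf (0.19 to 0.27), without control library 1 or 3 or any 1 Nrsn2 OE library for Crtc2 (0.17 to 0.27), without Nrsn2 OE library 4 for Crem (-0.37), and without control library 2 or Nrsn2 OE library 2, 3 or 4 for Fkbp5 (-0.20 to -0.15). GC and length offsets also ended the calls of Srf (0.16) and Crtc2 (0.16). The call of Crtc2 was lost as well with RLE factors, upper-quartile factors and DESeq2 (0.23 each), and that of Fkbp5 with no low-count filter (-0.19).

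**Figure D5:**
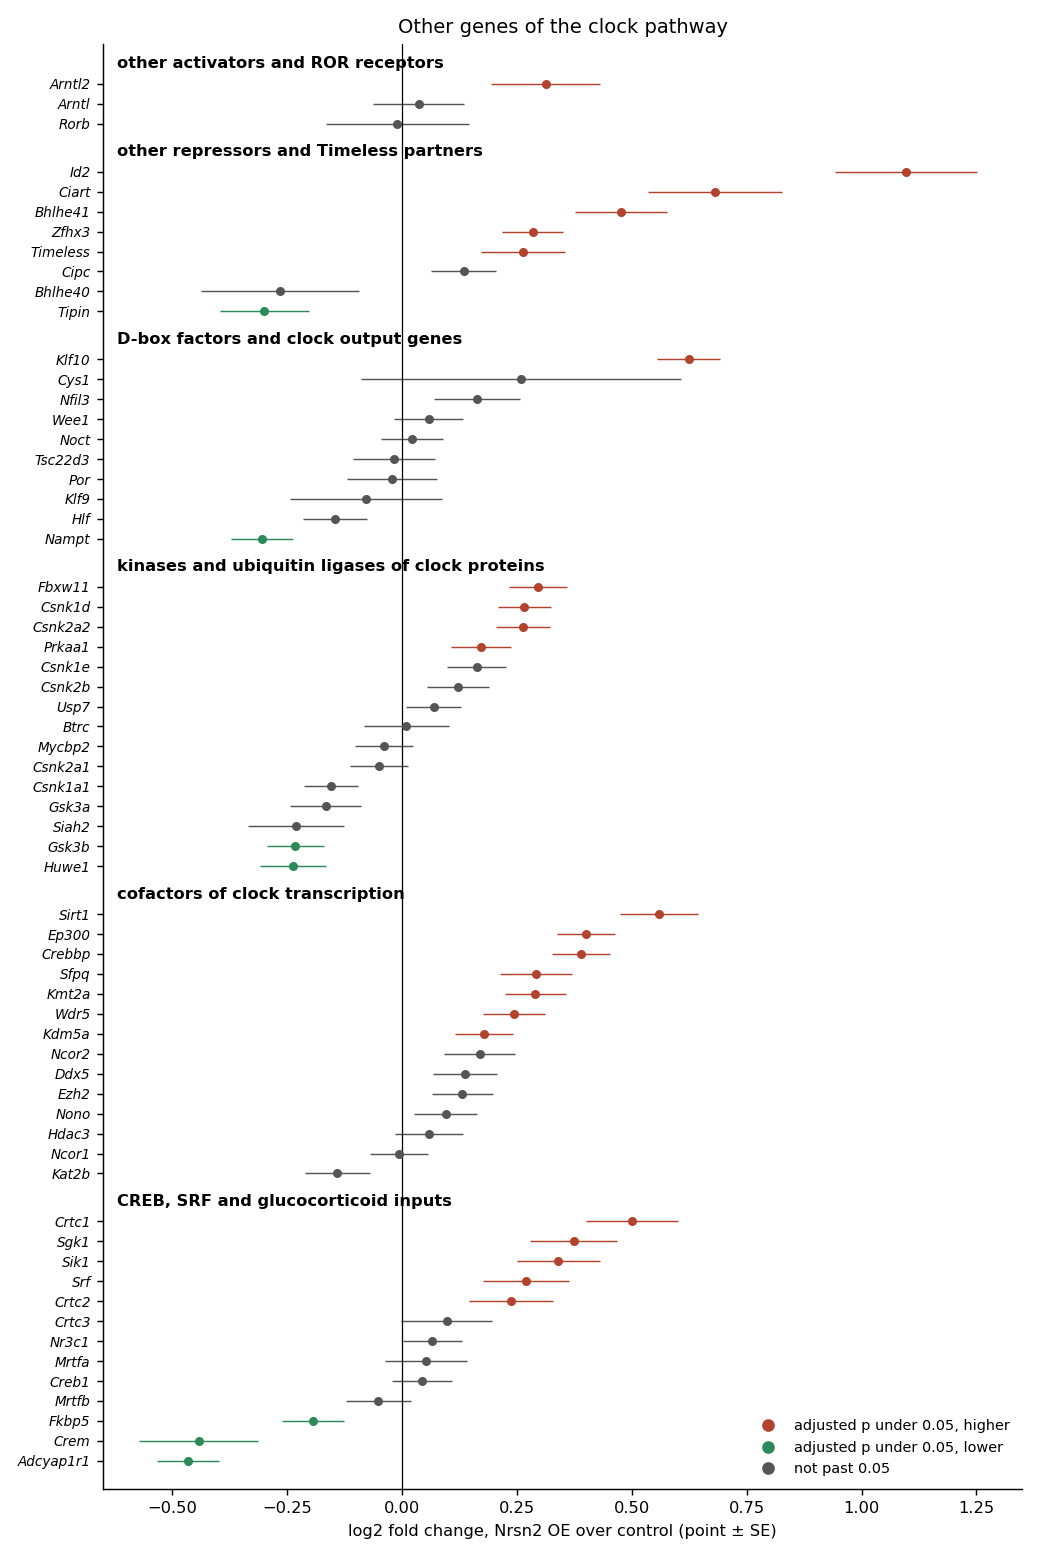
Log2 fold change ± SE, Nrsn2 OE over control, of the 63 tested genes of the 6 clock pathway lists (red, higher; green, lower; grey, not past an adjusted p of 0.05). Id2, at 1.10, lies farthest right and Adcyap1r1, at -0.47, farthest left.

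For the 3 members with the largest fold changes, the genes with the most similar course over the 8 libraries were found by the root-mean-square difference in log2 CPM, each gene set to its own control mean. Closest to Nr1d1 were Mtg2 (0.08), Zfpm1 (0.12) and Trim17 (0.12). Closest to Per1 were Dct (0.14), Zbtb48 (0.16) and Myom1 (0.17), and closest to Dbp were Cplane2 (0.28), Trpc7 (0.29) and Rnd1 (0.29). These 9 genes were picked for that likeness alone, out of tested genes with a mean of at least 1 CPM. Pseudogenes and genes with provisional names (Gm, Rik or clone names) had been left out. Their log2 fold changes ran from 0.62 for Cplane2 to 1.14 for Dct.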

How the data were processed

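PolyA RNA libraries of 4 Nrsn2 OE and 4 control samples were analysed from 1 deposited table. Tools named in the submitters' processing notes were DESeq2 1.36.0, HTSeq 2.01, TopHat2 2.1.1 and cutadapt 2.10, with the build GRCm39; their roles and the strand setting were not given in the sources used here. The TruSeq V2 kit named in the labels' protocols does not mark strand. Per the file headers, the deposited values are read counts per gene. Per the file headers, the authors also gave a DESeq2-normalized signal (counts over size factors, not used here), their log2 fold change with its standard error, the Wald statistic (a score) and p-values. The authors' adjusted p threshold of 0.1 was read from their marks.

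Counts were tested with edgeR 4.0.16 (R 4.3.3), quasi-likelihood, TMM, no covariate, filterByExpr at a minimum count of 10, Benjamini-Hochberg over 15187 genes, calling adjusted p under 0.05. Standard errors came from the F statistic. Precision is given as the SD over 4 libraries. Totals were 15347255 to 21395096 counts. In simulated data of this comparison over 14966 genes, 76.8% of genes changed 1.5-fold and 87.5% of genes changed 2-fold were called, and 4.76% of calls were unchanged genes. Only 99 and 96 tested genes were changed by these folds, and every gene had the same spread (coefficient of variation 0.086). The real data had many more calls and a spread that differs by gene, so these rates may not hold for them.

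Exon lengths and GC content came from GENCODE M21 (GRCm38) by gene ID, with a match for 99.8% of tested genes, and promoters from RefSeq (GRCm38.p6). The 10 members, the 6 lists, the motifs and the rule for named genes were chosen with earlier results of these data known. The rule named the 10 members, Nrsn2, genes overlapping a member, every gene of a list with up to 8 tested genes and otherwise the 4 with the smallest p, and the 3 genes nearest in course to each of 3 members. Csnk1e, Ncor1, Hdac3 and the genes marked so in the text fall outside it and were named with values in view. A few genes of the lists are not reported here and entered no count. Alternatives were RLE and upper-quartile factors, no low-count filter, DESeq2 1.42.0, limma-voom (limma 3.58.1), a replicate block, GC and length offsets (natural splines, 4 degrees of freedom), both together, and leaving out each library.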

Additional observations from a re-analysis of the deposited data

Results flagged for a closer look

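Among 128 groups of 4 libraries checked, 5 held a library far from the other 3 by Dixon's criterion, which chance alone gives in about 1 in 20 groups. Per1 had its lowest Nrsn2 OE level in library 3, at 7.43 CPM against 8.83 to 9.04 CPM in the other 3. Id2 had its highest Nrsn2 OE level in library 4, at 18.7 CPM against 15.95 to 16.4 CPM, and its lowest control level in library 4, at 4.65 CPM against 8.54 to 9.30 CPM. Control library 2 stood low for Hlf, at 38.5 CPM against 41.1 to 41.5 CPM. Control library 3 stood low for Adcyap1r1, at 168 CPM against 186 to 190 CPM. The flagged levels of Per1, Id2 and Adcyap1r1 lay on their own group's side of the other group's range, so the groups still did not overlap.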

How the results depend on the processing

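Of 160 values of the 10 clock genes under 16 alternatives, 148 kept their direction and side of the threshold, 6 (all of Dbp) lost the call, 6 (Per3 and Clock, 3 each) gained one and 0 changed sign. The number of clock genes higher, 5, was 4 to 5 without single libraries and 4 with DESeq2. It stayed 5, with Clock in place of Dbp, without control library 1 and with GC and length offsets, alone or with the replicate block. The number lower, 0, was 0 to 1 without single libraries and 1 with GC and length offsets, alone or with the replicate block. Over all tested genes, 2823 higher and 2546 lower became 2461 to 2898 and 2078 to 2613 without single libraries. For the other activators, 1 higher became 0 with RLE or upper-quartile factors, no filter, DESeq2 or the replicate block, and 0 to 1 without single libraries. For the other repressors, 1 lower became 2 with no filter, 0 with the offsets with or without the block, and 0 to 1 without single libraries. For output genes, 1 lower became 0 with the offsets, with or without the block. For cofactors, 7 higher became 6 with no filter, 9 with the offsets and 8 with offsets and block. Without single libraries the cofactors had 6 to 8 higher. For kinases and ligases, 2 lower became 4 with the offsets, with or without the block, and 1 to 4 without single libraries. For the input genes, 5 higher and 3 lower became 3 to 5 and 1 to 3 without single libraries. Over all 6 lists, 23 higher became 17 to 21 without single libraries and 20 to 24 under the other alternatives. Over the same lists, 7 lower became 4 to 8. Both the 17 higher and the 4 lower were found without Nrsn2 OE library 4. The cause of these shifts was not tested. Upper-quartile and RLE factors moved the median of all genes by -0.01.

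Values not past the threshold changed sign when single libraries were left out: Arntl ranged from -0.024 to 0.091, Rorb from -0.21 to 0.089, Bhlhe40 from -0.40 to 0.055, Camta1 from -0.13 to 0.042, D930015M05Rik from -0.25 to 0.18 and Noct from -0.0041 to 0.033. Ncor1 did so as well, from -0.039 to 0.027. Rorb was also 0.087 with the offsets and 0.070 with offsets and replicate block. Same-numbered libraries did not deviate together, with correlations of -0.10, -0.03, 0.06 and -0.08. Of the 4 Nrsn2 OE libraries, 1 was closest to its own number. So few values cannot show that the samples were not paired, and the labels do not state a pairing. With the replicate block the clock genes were 5 higher and 0 lower, and all genes 2705 higher and 2392 lower. Precision is limited by counts for Dbp, with 7 to 36 per library.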

Other observations

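Noct, the nocturnin gene, whose RNA cycles daily in many tissues, was the most abundant of the 63 tested pathway genes, at 3221 ± 46.9 CPM in the Nrsn2 OE libraries and 3174 ± 104 CPM in the control libraries, a log2 fold change of 0.02 ± 0.07. The 4 genes here were chosen with values in view. Usp2, a clock output gene in many tissues, held 0.356 ± 0.0996 CPM in the Nrsn2 OE libraries and 0.444 ± 0.176 CPM in the control libraries, too little to be tested. The glucocorticoid-responsive genes Tsc22d3 (47.8 ± 4.75 and 48.4 ± 5.82 CPM in Nrsn2 OE and control libraries) and Klf9 (5.39 ± 1.19 and 5.65 ± 0.93 CPM) did not pass, with log2 fold changes of -0.02 ± 0.09 and -0.08 ± 0.17 that changed sign when single libraries were left out.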
